A study of Mus musculus with 8 samples.

Results

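The genes of the cytosolic ribosomal proteins were followed in the descendants of hypertrophic chondrocytes, which are swollen cells found where the growth plate meets bone. The genes were picked by name: every gene whose symbol is Rpl or Rps followed by a number, with at most 1 letter (a, x, l or y) and 1 further digit. The rule took 83 of the 48490 genes, 35 of the small subunit (Rps) and 48 of the large subunit (Rpl). Of the 83, 78 are protein-coding and 5 (Rpl6l, Rps3a2, Rps3a3, Rps4l and Rps12l1) carry a pseudogene biotype in GENCODE M21. The name rule does not reach the stalk genes Rplp0, Rplp1 and Rplp2, nor some genes with other names such as Rpsa, Fau and Rpl36al, all of which were kept as a list of their own.

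A ribosome is built from ribosomal RNA and a set of proteins that form a small subunit, which reads the mRNA, and a large subunit, which joins the amino acids. Because each particle needs nearly every protein in equal number, the genes are transcribed at high and similar levels in most cells, and a surplus of single proteins is normally degraded. Bone-forming cells secrete large amounts of collagen matrix, and mutations in single ribosomal protein genes disturb red cell formation and skeletal patterning in mouse and human.

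Mice of 3 genotypes were compared at postnatal day 5, all of them carrying Col10a1Cre and the reporter Rosa26-Tdtomato. GoF mice also carried Ctnnb1-exon3 Δ/+, an allele that yields a stabilised form of β-catenin (which carries canonical Wnt signals into the nucleus), and gave 2 libraries. LoF mice carried Ctnnb1Δ/Δ, a deletion on both alleles, and gave 4 libraries, and WT mice had the Cre and the reporter only and gave 2 libraries. Each library was made by Smart-seq2, an amplification method for small amounts of RNA, from 70 red fluorescent cells of the proximal tibia that were picked by hand and pooled. The Cre is active in cells that express Col10a1, and the red label stays in whatever these cells become, so a pool can hold several cell types. The labels do not say whether libraries of a group came from separate animals. The p-values therefore rest on a spread among libraries that may be technical in part, and in GoF and WT technical only. Differences on the log2 scale are those of mean log2(FPKM + 1). Values are FPKM, in which fragments are divided by the length of the transcript and by the total of the library, so that levels of different genes can be set side by side.

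FPKM summed to between 293194 and 382101 per library over all genes, and the number of reads behind a value is unknown. The targeted gene, Ctnnb1, had 72.02 and 86.7 FPKM in the GoF libraries, 81.02, 67.3, 70.4 and 81.1 FPKM in the LoF libraries, and 137 and 146 FPKM in the WT libraries. Each of the 6 mutant values was lower than either WT value, with an adjusted p of 0.176 for GoF against WT and 0.11 for LoF against WT. Of the hypertrophic markers, Col10a1 was above 0 in every library (189.6 and 177 FPKM in the GoF libraries, 9.61, 114, 59.3 and 69.4 FPKM in the LoF libraries, and 6.24 and 20.5 FPKM in the WT libraries), while Ihh was listed at 0 in all LoF and WT libraries. The X-inactivation transcript Xist was above 0 in LoF libraries 1 and 4 and both WT libraries, and Y-linked Ddx3y was above 0 in both GoF libraries and LoF libraries 2 and 3. Genotype and sex therefore cannot be told apart between GoF and WT, and same-sex values are given below for the other comparisons. LoF libraries held both sexes, so they did not all come from the same animal, and their spread includes sex. In such pools, fewer cells of a type and less RNA per cell cannot be told apart either.

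The genes picked by name took up a larger share of the summed FPKM in LoF libraries. The 83 genes made up 10.6 and 11.9 percent of the summed FPKM in the GoF libraries, 16.9, 18.2, 17.3 and 14.5 percent in the LoF libraries, and 10.3 and 10.97 percent in the WT libraries. Every LoF library lay above every GoF and WT library, and both GoF values were close to the WT values. The 35 small-subunit genes summed to 18474 and 21605 FPKM in the GoF libraries, 23821, 30167, 28898 and 24436 FPKM in the LoF libraries, and 16323 and 18056 FPKM in the WT libraries. The 48 large-subunit genes summed to 18904 and 23861 FPKM in the GoF libraries, 25621, 32186, 31525 and 26291 FPKM in the LoF libraries, and 17271 and 19684 FPKM in the WT libraries. Both subunits were thus highest in the same 4 libraries. The sum over all 83 genes averaged 41422 ± 5719 FPKM in GoF (SD, n = 2), 55736 ± 6594 in LoF (n = 4) and 35667 ± 2932 in WT (n = 2). The ratio of mean sums was 1.16 for GoF over WT, 1.56 for LoF over WT and 0.743 for GoF over LoF. No test was made of these sums.

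The balance between the subunits moved far less than the totals. The small-subunit sum divided by the large-subunit sum was 0.977 and 0.905 in the GoF libraries, 0.930, 0.937, 0.917 and 0.929 in the LoF libraries, and 0.945 and 0.917 in the WT libraries. The lowest and the highest of the 8 ratios both belonged to GoF libraries, and the LoF ratios fell between the 2 GoF values. For LoF over WT the ratio of means was 1.56 for the small and 1.56 for the large subunit, and for GoF over WT it was 1.17 and 1.16.

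**Figure D1:**
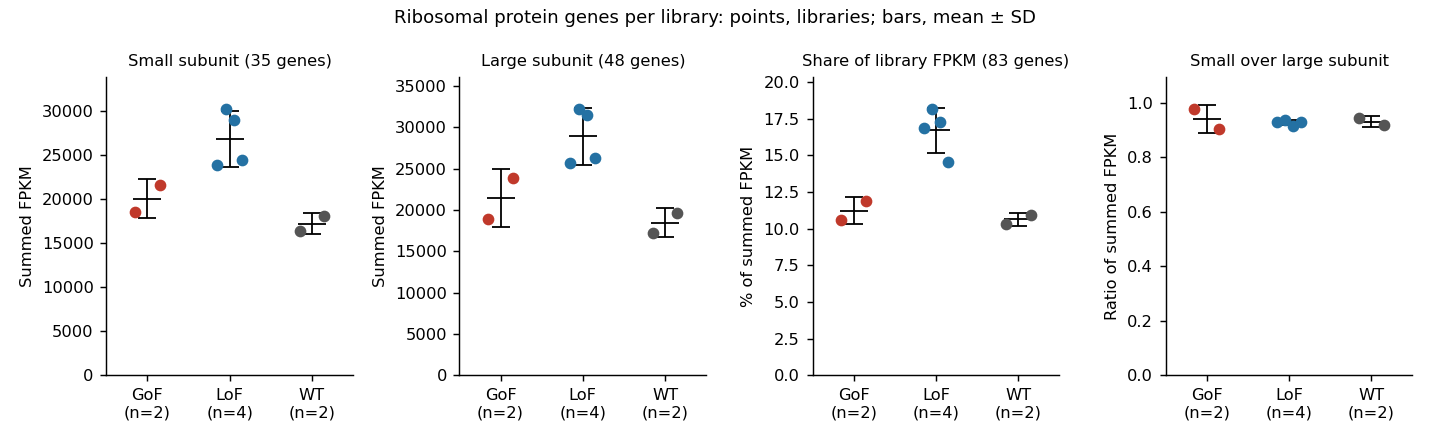
Each panel plots 1 value per library (points), with the mean and SD of each group as a line and bars, for GoF (n = 2), LoF (n = 4) and WT (n = 2) from left to right. The vertical axes give summed FPKM of the small and the large subunit, the percent of all FPKM taken by the 83 genes, and the ratio of the subunit sums; the 4 LoF points lie above all others in the first 3 panels, and the ratios lie between 0.905 and 0.977.

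Levels of single genes spanned a wide range, but most members lay between 100 and 1000 FPKM. Over the mean of the 3 group means, 11 genes were at 1000 FPKM or more, 64 lay between 100 and 1000, 6 between 10 and 100, and 2 below 10. Those between 10 and 100 included the pseudogene rows Rps3a2, Rps3a3, Rpl6l and Rps4l. Pseudogene rows were not added to their parent genes here. Rpl17, for example, averaged 77.4 FPKM in WT alone and 261 with its pseudogene rows. The median member had 429 and 556 FPKM in the GoF libraries, 544, 658, 673 and 579 FPKM in the LoF libraries, and 385 and 425 FPKM in the WT libraries. The highest gene was Rpl41, which encodes a very short protein, in both GoF libraries and Rpl13a in LoF library 3. In the other 5 libraries it was Rps27, a zinc-binding protein of the small subunit.

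Rps27 had 1502 and 1275 FPKM in the GoF libraries, 3178, 4374, 1807 and 2052 FPKM in the LoF libraries, and 1617 and 1648 FPKM in the WT libraries. LoF libraries 1 and 2 stood well above LoF libraries 3 and 4, and all 4 lay above the WT libraries, which lay above the GoF libraries. It did not pass the test in either mutant (LoF against WT, log2 difference 0.71, SE 0.33, adjusted p = 0.394; GoF against WT, log2 difference -0.24, SE 0.38, adjusted p = 0.853). Rpl41 had 1727 and 1826 FPKM in the GoF libraries, 1605, 1818, 2014 and 1727 FPKM in the LoF libraries, and 1116 and 1580.1 FPKM in the WT libraries, with the WT libraries lowest and the mutants overlapping each other (GoF against LoF, log2 difference -0.01, SE 0.21, adjusted p = 0.987). Also high in the small subunit were Rps29, Rps28 and X-linked Rps4x. Rps29 averaged 976 ± 149 in GoF, 1231 ± 412 in LoF and 914 ± 94.2 in WT and Rps28 1117 ± 144 in GoF, 1152 ± 377 in LoF and 846 ± 69.9 in WT FPKM (mean ± SD, n = 2, 4 and 2 libraries). Rps4x averaged 900.0 ± 88.8 in GoF, 1373 ± 199 in LoF and 837 ± 53.3 in WT FPKM with the same numbers of libraries. In Rps29 all groups overlapped, in Rps28 LoF overlapped both other groups, and in Rps4x the LoF libraries lay above all others.

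In the large subunit Rpl41 was followed by Rpl13a, Rpl10, which joins the particle late and shapes the site where peptide bonds form, Rpl32 and Rpl9. Rpl13a had 941 and 1051 FPKM in the GoF libraries, 1501, 1425, 2355 and 1544 FPKM in the LoF libraries, and 899 and 1056 FPKM in the WT libraries. LoF library 3 stood far above the other LoF libraries, which were themselves above the GoF and WT libraries; the test was not passed for LoF against WT (log2 difference 0.78, SE 0.24, adjusted p = 0.183). Rpl10 was the exception among these genes, with 1117 and 1387 FPKM in the GoF libraries, 892, 1222, 1133 and 1134 FPKM in the LoF libraries, and 1019.5 and 1068 FPKM in the WT libraries. Its LoF values overlapped both other groups, and its rank among the 83 was 3 in GoF and in WT and 14 in LoF. Rpl32 averaged 991 ± 183 in GoF, 1377 ± 263 in LoF and 943 ± 113 in WT FPKM and Rpl9 911 ± 98.4 in GoF, 1500.3 ± 351 in LoF and 789.8 ± 12.9 in WT FPKM (n = 2, 4 and 2), and neither passed in any comparison. Within the LoF group the coefficient of variation of a member had a median of 21.9 percent over the 82 members above 0.

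LoF against WT asks what changes when β-catenin is removed. In LoF 3 members rose and 0 fell: Rpl21 and Rpl26 of the large subunit and Rps24 of the small subunit. Over all 12888 genes tested, 1.23% were called, 0.566% higher and 0.667% lower, at an adjusted p under 0.05 (limma, Benjamini-Hochberg over all genes), and 3 of 81 members is to be read against those shares. The log2 fold change was above 0 in 73 members and below 0 in 8. In 56 members every LoF library lay above both WT libraries, and in 1, Rpl7l1, every LoF library lay below; over all genes those shares were 11.5% and 9.88%. At an unadjusted p under 0.05, 42 members were higher and 1 was lower. No share over all genes is given at this cut or for the signs, so these counts have no background beside them. The median log2 fold change was 0.62 over the members, 0.59 in the small and 0.65 in the large subunit, against 0.06 over all genes tested. It was 0.30 under quantile normalization and -0.021 when each library was scaled to the summed FPKM of the 83 genes, a scaling that sets the family total equal in all libraries.

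Rpl21 (ENSMUSG00000041453.12, chromosome 5, 146832890 to 146837032, plus strand, mm10), a protein of the large subunit, had 106 and 148 FPKM in the GoF libraries, 355, 456, 333 and 302 FPKM in the LoF libraries, and 103 and 105 FPKM in the WT libraries. The LoF libraries lay far above the rest, and both GoF libraries were above the WT libraries, library 1 only slightly. It averaged 127 ± 29.6 in GoF, 362 ± 66.6 in LoF and 104 ± 1.42 in WT FPKM (n = 2, 4 and 2) and was 3.47-fold higher in LoF than in WT (log2 difference 1.77, SE 0.25, adjusted p = 0.0155). Among the 14 Rpl21 pseudogene rows of the table several carry reads, and with these added to the parent gene it had 239 and 280.4 FPKM in the GoF libraries, 526, 681, 486 and 516 FPKM in the LoF libraries, and 266 and 245 FPKM in the WT libraries. The difference was smaller on this sum but still passed (log2 difference 1.10, adjusted p = 0.0477). It was also the 1 member that passed when each library was scaled to the summed FPKM of the 83 genes (log2 difference 1.13, adjusted p = 0.0296).

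Rpl26 (ENSMUSG00000060938.14, chromosome 11, 68901583 to 68906989, plus strand), which sits at the exit of the peptide tunnel, had 576 and 705 FPKM in the GoF libraries, 806, 1159, 942 and 892 FPKM in the LoF libraries, and 433 and 242 FPKM in the WT libraries. The order of the groups was LoF, GoF, WT with no overlap, and the 2 WT libraries differed by more than the lower GoF library did from the higher WT library. It was 2.82-fold higher in LoF than in WT (log2 difference 1.54, SE 0.27, adjusted p = 0.0295). Rps24 (ENSMUSG00000025290.16, chromosome 14, 24490681 to 24496146, plus strand), a small-subunit protein mutated in some families with Diamond-Blackfan anaemia, had 525 and 746 FPKM in the GoF libraries, 1204, 1493, 1013 and 915 FPKM in the LoF libraries, and 461 and 487 FPKM in the WT libraries. Every LoF library lay above every GoF library, and these above both WT libraries, and the fold of means was 2.44 for LoF over WT (log2 difference 1.26, SE 0.25, adjusted p = 0.0482).

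These 3 calls depend on the libraries used. Without WT library 2, 0 members passed; without WT library 1, Rpl26 was higher and Rps3a2 and Rps3a3 were lower; without LoF library 2 or 3 only Rpl21 passed, without LoF library 1 Rpl21 and Rpl26, and without LoF library 4 Rpl21 and Rpl39. With sex as a covariate 0 passed. Within the libraries that express Xist (LoF 1 and 4, WT 1 and 2), 69 of 81 members had a positive log2 difference, 56 did not overlap and were higher (20.9% of all genes), and the median log2 difference was 0.49, against 0.04 over all genes; Rpl21 differed by 1.64, Rpl26 by 1.39 and Rps24 by 1.15.

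**Figure D2:**
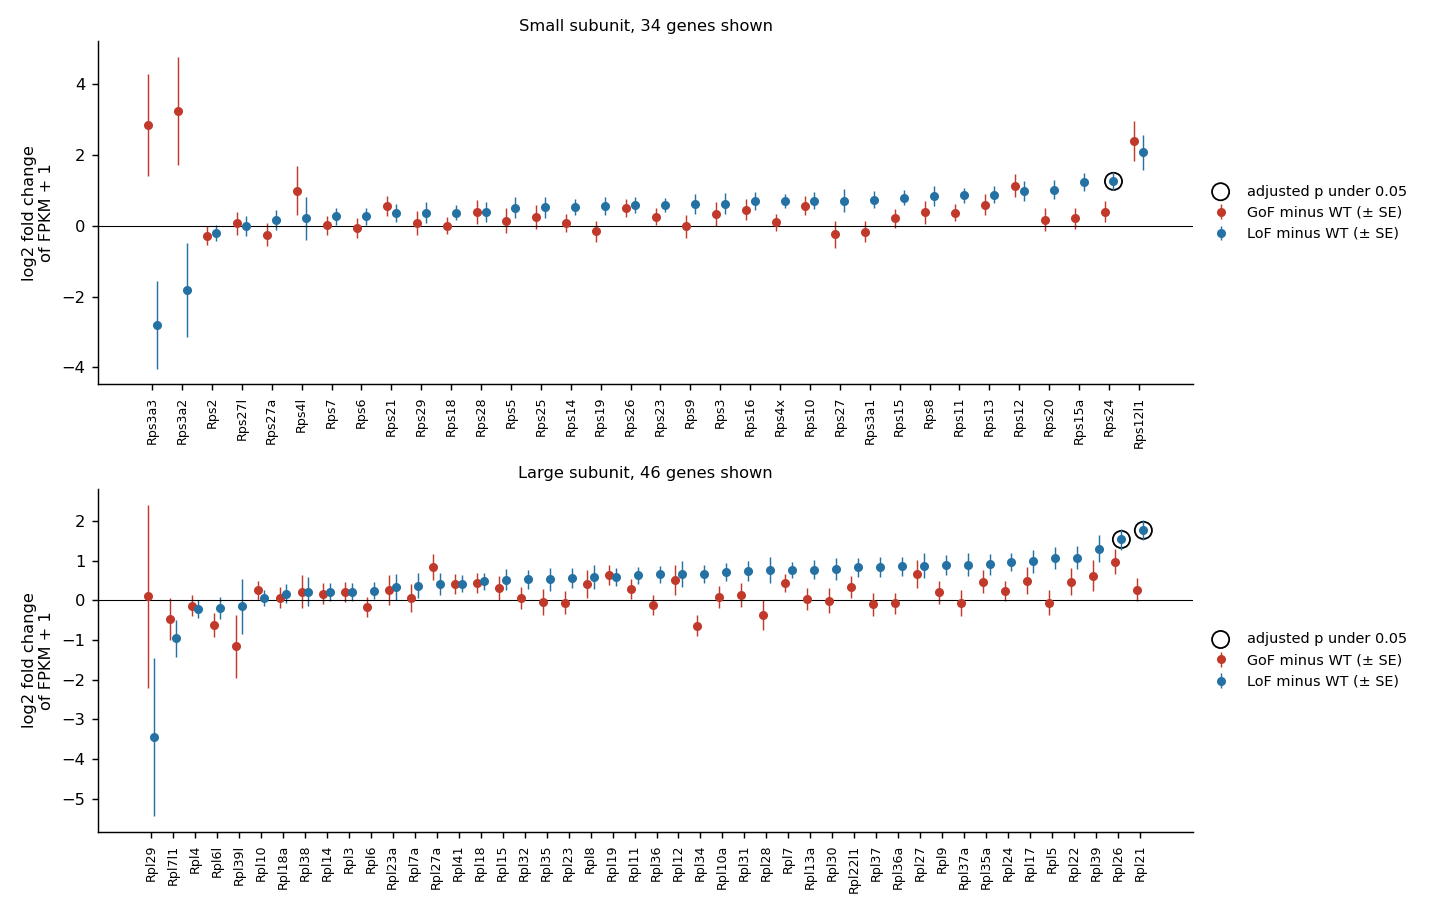
The plot shows 34 small-subunit and 46 large-subunit genes, ordered by their LoF minus WT difference. Points give the log2 fold change of FPKM + 1 for GoF minus WT and LoF minus WT, bars the standard error from the fit, and rings mark an adjusted p under 0.05; of the 80 genes shown, the GoF points lie above 0 in 58 and the LoF points in 72.

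GoF against WT asks what changes when β-catenin is stabilised, and no member passed the test in either direction (limma). Of all genes, 2.31% were called, 1.41% higher and 0.900% lower. At an unadjusted p under 0.05, 5 members were higher and 1 was lower, with no share over all genes given at this cut. The log2 fold change was positive in 59 members and negative in 22, with a median of 0.21 against -0.08 over all genes, and this median changed sign under quantile normalization (-0.055) and with sex as a covariate (-0.13). In the covariate fit the sex term rests on the LoF libraries alone, because sex and genotype coincide between GoF and WT. The median was 0.058 when libraries were rescaled without ribosomal-RNA-like genes and 0.055 without erythroid genes. Scaled to the summed FPKM of the 83 genes, it was 0.0023. Without GoF library 1 it was 0.37, without GoF library 2 0.072, and without WT library 1 0.12. Both GoF libraries lay above both WT libraries in 37 members and below in 6, where the shares over all genes were 21.8% and 26.2%.

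The largest positive differences were those of Rps3a2, Rps3a3 and Rps12l1, all rows with a pseudogene biotype. Rps12l1 (chromosome 7, 56014016 to 56014414), a copy of Rps12, had 205 and 126 FPKM in the GoF libraries, 88.7, 146, 196 and 109 FPKM in the LoF libraries, and 15.6 and 56.1 FPKM in the WT libraries. WT library 1 was lowest and WT library 2 also lay below every mutant library (GoF against WT, log2 difference 2.39, SE 0.56, adjusted p = 0.062; LoF against WT, log2 difference 2.08, SE 0.49, adjusted p = 0.0825). Without WT library 2, Rps12l1, Rps3a2 and Rps3a3 passed the test as higher in GoF, and without LoF library 3 Rps12 did. Summed over Rps12, Rps12-ps3 and Rps12l1 the values were 1209 and 1564 FPKM in the GoF libraries, 905, 987, 1730.1 and 934 FPKM in the LoF libraries, and 613 and 543 FPKM in the WT libraries, so the WT libraries remained the lowest.

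On the negative side stood Rpl39l, Rpl34 and Rpl6l. Rpl39l, a copy of Rpl39 best known from testis, had 2.67 and 16.1 FPKM in the GoF libraries, 7.53, 12.8, 14.6 and 34.5 FPKM in the LoF libraries, and 11.2 and 24.7 FPKM in the WT libraries, and its groups overlapped (log2 difference -1.16, SE 0.80, adjusted p = 0.591). Rpl6l had 27.1 and 22.3 FPKM in the GoF libraries, 31.4, 32.7, 33.6 and 37.1 FPKM in the LoF libraries, and 40.99 and 36.03 FPKM in the WT libraries, with the GoF libraries below all others (log2 difference -0.62, SE 0.31, adjusted p = 0.407). Rpl34 is taken up with its copy below.

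GoF against LoF sets the opposite alleles side by side. In GoF 7 members fell, all of them protein-coding: Rpl21, Rpl34, Rpl5, Rpl36a and Rpl37 of the large subunit and Rps15a and Rps3a1 of the small subunit. The 2 that rose were the pseudogene rows Rps3a2 and Rps3a3. Of all genes, 11.6% were called, 5.97% higher and 5.68% lower in GoF, and 7 of 81 lower members is to be read against the second of these. The groups did not overlap in 35 members that were lower in GoF and in 2 that were higher, against 18.7% and 14.8% of all genes. The median log2 fold change was -0.36 over the members and -0.17 over all genes. It was -0.19 without GoF library 1 and under median ratio scaling, and 0.062 when scaled to the summed FPKM of the 83 genes. This comparison shares its LoF libraries with LoF against WT.

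Rpl21 fell by 1.501 on the log2 scale (SE 0.25, adjusted p = 0.00434), and by 1.08 with its pseudogene rows added (adjusted p = 0.0117). Rpl5 (ENSMUSG00000058558.12, chromosome 5, 107900502 to 107909005, plus strand), which with Rpl11 forms the particle that carries the smallest ribosomal RNA and can bind the p53 regulator Mdm2, had 246 and 335 FPKM in the GoF libraries, 767, 754, 446 and 602 FPKM in the LoF libraries, and 258 and 345 FPKM in the WT libraries. All LoF libraries lay above the other libraries, while GoF and WT overlapped (log2 difference -1.12, SE 0.28, adjusted p = 0.0292). Its partner Rpl11 had 452 and 576 FPKM in the GoF libraries, 559, 647, 762 and 649 FPKM in the LoF libraries, and 419 and 417 FPKM in the WT libraries. There LoF libraries again lay above WT, but GoF library 2 overlapped them (log2 difference -0.35, SE 0.22, adjusted p = 0.359).

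Rpl37 (ENSMUSG00000041841.7, chromosome 15, 5116613 to 5119140, plus strand), a small zinc-binding protein of the large subunit, had 103 and 146 FPKM in the GoF libraries, 229, 268, 256 and 203 FPKM in the LoF libraries, and 116 and 148 FPKM in the WT libraries. The GoF and WT ranges overlapped and the LoF libraries stood above both (log2 difference -0.95, SE 0.25, adjusted p = 0.0362). Rpl36a (ENSMUSG00000079435.9, chromosome X, 134585654 to 134588062, plus strand), found near the exit site for used tRNA, had 335 and 439.9 FPKM in the GoF libraries, 675, 952, 659.9 and 692 FPKM in the LoF libraries, and 387 and 424 FPKM in the WT libraries, with LoF library 2 the highest and the same order of groups (log2 difference -0.94, SE 0.23, adjusted p = 0.0292). Rps15a (ENSMUSG00000008683.16, chromosome 7, 118104372 to 118116188, minus strand), a core protein of the small subunit, had 389 and 559.9 FPKM in the GoF libraries, 856, 1297, 912 and 793 FPKM in the LoF libraries, and 397 and 404 FPKM in the WT libraries. LoF library 2 was again the highest, and no LoF library overlapped another group (GoF against LoF, log2 difference -1.02, SE 0.26, adjusted p = 0.0303; LoF against WT, log2 difference 1.24, SE 0.26, adjusted p = 0.0528).

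Without GoF library 1 no member passed in GoF against LoF, and without GoF library 2 only Rpl21 and Rpl34 did. The same pair, with Rps3a3, passed without LoF library 2, while 9, 7 and 10 members passed without LoF library 1, 3 and 4. Without WT library 1 or 2, which here only contribute to the spread, Rpl5, Rpl21, Rpl34, Rps3a2 and Rps3a3 passed. Within the libraries with Y-linked transcripts (GoF 1 and 2, LoF 2 and 3), 51 of 81 members did not overlap and were lower in GoF (28.7% of all genes), with a median log2 difference of -0.53 against -0.17 over all genes. Scaled to the summed FPKM of the family, Rpl21 and Rpl34 remained lower in GoF, Rps3a2 and Rps3a3 higher, and Rpl10 was added as higher (log2 difference 0.62, adjusted p = 0.0494).

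**Figure D3:**
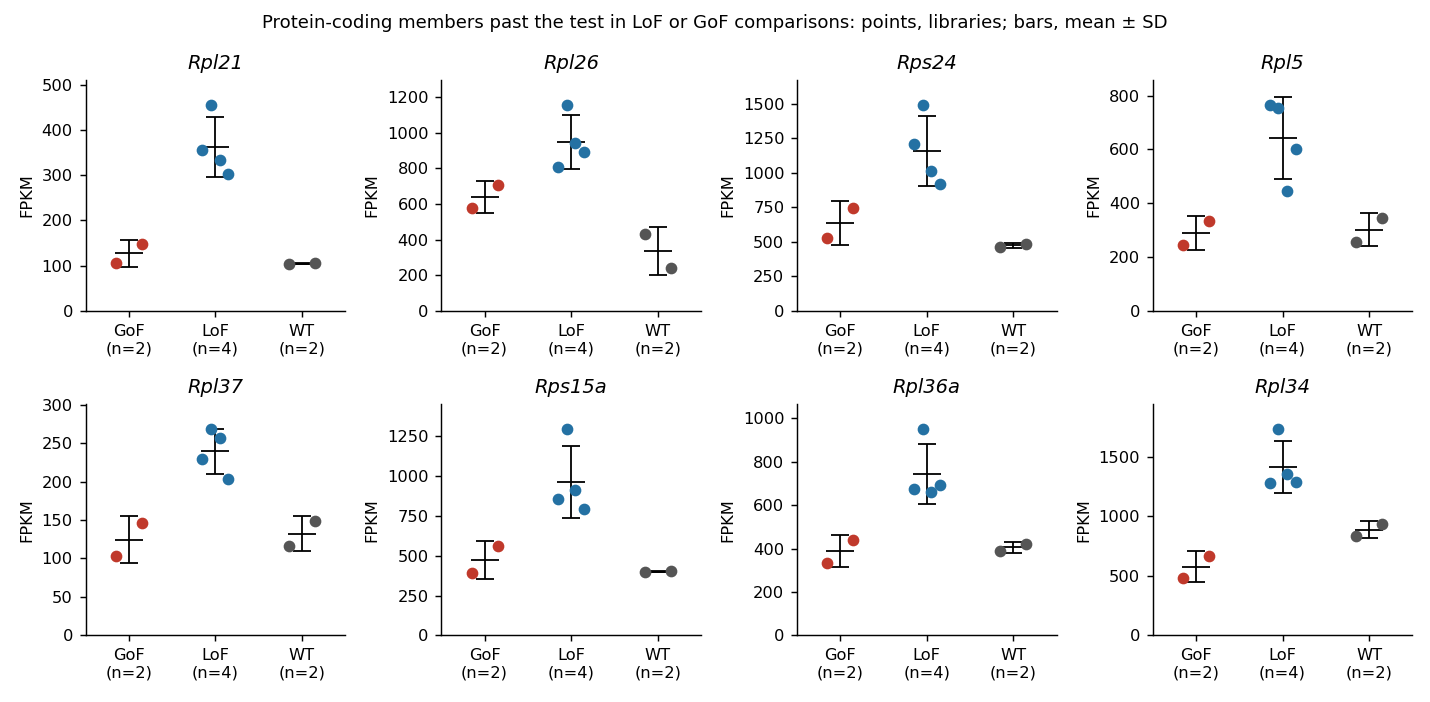
FPKM of the 8 protein-coding members that passed in LoF against WT or GoF against LoF, other than Rps3a1. Points are libraries, lines and bars the mean and SD, and the groups run GoF (n = 2), LoF (n = 4), WT (n = 2); in every panel the 4 LoF libraries lie above both other groups.

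Of the members called in GoF against LoF, Rps3a1, Rps3a2, Rps3a3 and Rpl34 share nearly all their sequence with other rows of the table. Rps3a1 (ENSMUSG00000028081.6, chromosome 3, 86137940 to 86142702, minus strand) is the gene with introns for a protein of the small subunit. Rps3a2 (chromosome 14, 88123017 to 88123808) and Rps3a3 (chromosome 13, 108670603 to 108671397) lie on other chromosomes and match its 792 coding bases to 99.5% (4 bases differ) and to 99.0% (8 of 791 aligned bases differ). The same 90 coding bases, positions 579 to 668, are given for the 3 rows from GENCODE M21 transcripts, to show how little there is to tell reads apart. Capitals mark the positions at which the 3 are not identical.
Rps3a1: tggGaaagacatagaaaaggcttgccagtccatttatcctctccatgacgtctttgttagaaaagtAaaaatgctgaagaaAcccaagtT
Rps3a2: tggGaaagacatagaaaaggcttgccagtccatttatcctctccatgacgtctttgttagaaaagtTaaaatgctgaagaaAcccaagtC
Rps3a3: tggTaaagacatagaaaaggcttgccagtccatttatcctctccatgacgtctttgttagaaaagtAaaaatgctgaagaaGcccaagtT

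Rps3a1 had 548 and 580.2 FPKM in the GoF libraries, 798, 1093, 1320.2 and 1083 FPKM in the LoF libraries, and 756 and 524 FPKM in the WT libraries. It fell in GoF against LoF (log2 difference -0.91, SE 0.25, adjusted p = 0.0446). Rps3a2 had 122 and 156 FPKM in the GoF libraries, 1.29, 5.83, 2.41 and 4.63 FPKM in the LoF libraries, and 0.567 and 135 FPKM in the WT libraries. Rps3a3 had 93.7 and 124 FPKM in the GoF libraries, 0.257, 0.967, 5.06 and 0.512 FPKM in the LoF libraries, and 1.13 and 106 FPKM in the WT libraries. Both copies were high in the GoF libraries and in WT library 2 and near 0 in the LoF libraries and in WT library 1, so the 2 WT libraries split (GoF against LoF, log2 difference 5.06, SE 1.32, adjusted p = 0.0351 for Rps3a2 and log2 difference 5.64, SE 1.24, adjusted p = 0.0169 for Rps3a3). Summed over the 3 rows the values were 764 and 860.3 FPKM in the GoF libraries, 799.6, 1099.5, 1328 and 1088 FPKM in the LoF libraries, and 758 and 766 FPKM in the WT libraries. On the sum GoF and LoF overlapped, the WT libraries were nearly equal, and the test was not passed (GoF against LoF, log2 difference -0.39, adjusted p = 0.34).

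Rpl34 (ENSMUSG00000062006.12, chromosome 3, 130726831 to 130730398, minus strand), a large-subunit protein, has a near copy, Rpl34-ps1, on chromosome 6, which differs from it at 2 of 351 coding bases. Coding positions 43 to 132 hold 1 of these differences, marked by a capital in the GENCODE M21 sequences.
Rpl34: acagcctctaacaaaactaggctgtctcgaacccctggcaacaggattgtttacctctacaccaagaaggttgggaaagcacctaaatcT
Rpl34-ps1: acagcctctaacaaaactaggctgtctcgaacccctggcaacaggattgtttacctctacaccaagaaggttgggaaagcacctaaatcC

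Rpl34 had 485 and 669 FPKM in the GoF libraries, 1279, 1734, 1352 and 1287 FPKM in the LoF libraries, and 836 and 938 FPKM in the WT libraries. The GoF libraries were lowest and the LoF libraries highest, and no groups overlapped (GoF against LoF, log2 difference -1.30, SE 0.23, adjusted p = 0.00533; GoF against WT, log2 difference -0.64, SE 0.26, adjusted p = 0.29). Rpl34-ps1 ran the other way, with 339.9 and 379 FPKM in the GoF libraries, 38.8, 34.9, 47.1 and 32.3 FPKM in the LoF libraries, and 38.3 and 23.6 FPKM in the WT libraries. Both GoF libraries lay far above the 6 others, and the row rose in GoF against WT (log2 difference 3.53, SE 0.33, adjusted p = 0.00123) and against LoF (log2 difference 3.21, SE 0.29, adjusted p = 0.000161). The 2 rows together had 824 and 1048 FPKM in the GoF libraries, 1318, 1769, 1399 and 1319 FPKM in the LoF libraries, and 874 and 962 FPKM in the WT libraries. On this sum GoF and WT overlapped and GoF remained below LoF in every library without passing the test (log2 difference -0.63, adjusted p = 0.0898). How the authors' counting shared reads between such copies is not given in the sources used here, so the levels of these single rows are uncertain.

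**Figure D4:**
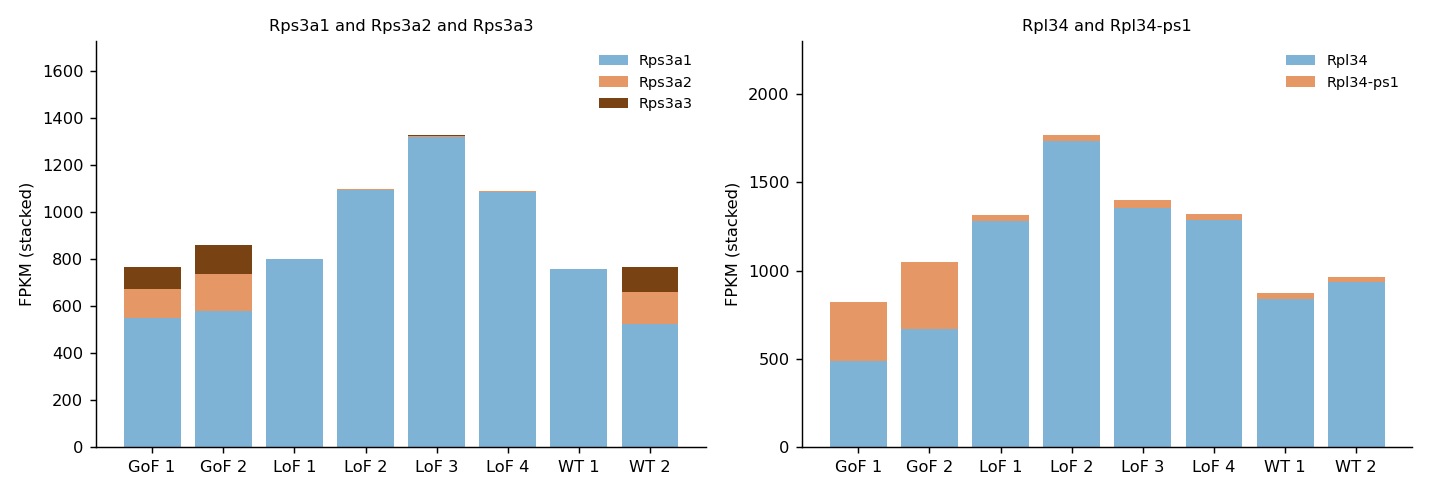
Stacked bars give the FPKM of Rps3a1, Rps3a2 and Rps3a3 (left) and of Rpl34 and Rpl34-ps1 (right) in each library, GoF first, then LoF, then WT. The 2 Rps3a copies show in GoF libraries 1 and 2 and WT library 2, and Rpl34-ps1 is tall in the 2 GoF libraries, where the Rpl34 bar is shortest.

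Rows named as pseudogenes of a ribosomal protein gene outside the 83 numbered 257, of which 101 passed the filter on low values. In GoF against WT 2 of these rose (Rpl34-ps1 and Rpl35a-ps3) and 1 fell (Rpl15-ps2). In LoF against WT, Rpl28-ps3, Rps24-ps3 and Rpl17-ps8 rose and Rpl15-ps2 fell, and in GoF against LoF 2 rows rose and 4 fell. Called rows are to be read beside the shares called among all genes. Between GoF and WT these were 1.41% higher and 0.900% lower in GoF. Between LoF and WT they were 0.566% higher and 0.667% lower in LoF. Between GoF and LoF they were 5.97% higher and 5.68% lower in GoF. Rpl35a-ps3 had 75.8 and 94.4 FPKM in the GoF libraries, 7.41, 17.96, 11.2 and 1.96 FPKM in the LoF libraries, and 2.57 and 4.02 FPKM in the WT libraries, with both GoF libraries above the rest. Rpl15-ps2 had 2.13 and 4.70 FPKM in the GoF libraries, 6.55, 8.05, 6.03 and 9.77 FPKM in the LoF libraries, and 32.9 and 43.1 FPKM in the WT libraries, with both WT libraries above all mutant libraries.

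Paralogues that can stand in for one another in the particle kept very unequal levels. Rpl22l1 had 463 and 621 FPKM in the GoF libraries, 802, 914, 663 and 691 FPKM in the LoF libraries, and 366 and 491 FPKM in the WT libraries, and Rpl22, which in mouse represses it, had 159.7 and 257 FPKM in the GoF libraries, 239, 423, 325 and 274 FPKM in the LoF libraries, and 137 and 154 FPKM in the WT libraries. The paralogue was the higher of the 2 in every library, by 2.04-fold to 3.36-fold, with the lowest and the highest ratio both in LoF libraries. Rps27l, a target of p53, had 273 and 339.8 FPKM in the GoF libraries, 210.1, 362, 277 and 333 FPKM in the LoF libraries, and 238 and 350.4 FPKM in the WT libraries. Its groups overlapped (LoF against WT, log2 difference 0.01, SE 0.28, adjusted p = 1), and it amounted to between 0.0661 and 0.266 of Rps27, the lowest shares being those of LoF libraries 1 and 2.

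Rpl39 had 501 and 619 FPKM in the GoF libraries, 1106, 1396, 768 and 538 FPKM in the LoF libraries, and 369.7 and 351 FPKM in the WT libraries, with LoF libraries 1 and 2 the highest, all LoF libraries above WT, and LoF library 4 among the GoF values (log2 difference 1.31, SE 0.34, adjusted p = 0.115 for LoF against WT). Rpl39l amounted to at most 0.0702 of it. Rpl7 averaged 694 ± 79.5 in GoF, 877 ± 102 in LoF and 509 ± 20.9 in WT FPKM (n = 2, 4 and 2), and its relative Rpl7l1 had 11.3 and 9.51 FPKM in the GoF libraries, 7.84, 3.39, 7.35 and 12.5 FPKM in the LoF libraries, and 13.1 and 16.7 FPKM in the WT libraries. Rpl7l1 was the one member with every LoF library below both WT libraries, and it did not pass (log2 difference -0.96, SE 0.46, adjusted p = 0.418). Rps4l averaged 38.1 ± 8.23 in GoF, 26.8 ± 19.7 in LoF and 18.4 ± 2.62 in WT FPKM beside the X-linked Rps4x. Rpl3 had 486 and 591 FPKM in the GoF libraries, 449.6, 486, 651 and 589.6 FPKM in the LoF libraries, and 459 and 466 FPKM in the WT libraries with LoF overlapping both groups, while its muscle paralogue Rpl3l was listed above 0 only in LoF library 4 (0.71 FPKM) and WT library 2 (0.747 FPKM). Rpl10l, the testis copy of Rpl10, was listed at 0 in all 8 libraries, and these last paralogues, Rpl3l and Rpl10l, did not enter the test.

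Rpl29 stood apart in another way: it had 132 and 157 FPKM in the GoF libraries, 0, 0, 194 and 121 FPKM in the LoF libraries, and 132 and 136 FPKM in the WT libraries. It was listed at 0 in LoF libraries 1 and 2 and lay between 121 and 194 FPKM in the 6 others, where the groups overlapped. A value of 0 in such a table can be a failed estimate, and no fold is given. This gene gave the largest negative log2 difference in LoF against WT, with an adjusted p of 0.517.

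Members mutated in Diamond-Blackfan anaemia, a failure of red cell formation, form a group of their own. Of Rps19, Rps24, Rps26, Rps10, Rps7, Rpl5, Rpl11 and Rpl35a, Rps24 alone rose in LoF against WT and Rpl5 alone fell in GoF against LoF; none passed in GoF against WT. Rps19, the gene most often affected in patients, had 373 and 656 FPKM in the GoF libraries, 732, 842, 897 and 785 FPKM in the LoF libraries, and 508 and 597 FPKM in the WT libraries. LoF libraries lay above all others, and GoF library 1 was the lowest (log2 difference 0.56, SE 0.25, adjusted p = 0.379 for LoF against WT). Rps26 averaged 1095 ± 21.8 in GoF, 1173 ± 152 in LoF and 783 ± 160.5 in WT FPKM, Rps10 483 ± 39.2 in GoF, 539.8 ± 117 in LoF and 324 ± 14.5 in WT and Rpl35a 512 ± 49.8 in GoF, 705 ± 174 in LoF and 371 ± 65.04 in WT FPKM (n = 2, 4 and 2), and in these 3 the GoF libraries also lay above both WT libraries. Rps7 had 269 and 359.7 FPKM in the GoF libraries, 302, 391, 403 and 396 FPKM in the LoF libraries, and 271 and 349.8 FPKM in the WT libraries, and its groups overlapped in all comparisons.

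Rpl38 (Tail short) and Rpl24 (Belly spot and tail) are known from mutant mice with skeletal patterning defects. Rpl38 had 620.0 and 588 FPKM in the GoF libraries, 722, 917, 622 and 313 FPKM in the LoF libraries, and 486 and 549.7 FPKM in the WT libraries. The 4 LoF libraries spanned the range of all others, from the lowest to the highest value, and no comparison passed (log2 difference 0.21, SE 0.37, adjusted p = 0.859 for LoF against WT). Rpl24 had 502 and 604 FPKM in the GoF libraries, 768, 1069, 976 and 874 FPKM in the LoF libraries, and 502 and 433 FPKM in the WT libraries. Every LoF library lay above both other groups, short of the threshold (LoF against WT, log2 difference 0.97, SE 0.22, adjusted p = 0.0701; GoF against LoF, log2 difference -0.73, SE 0.22, adjusted p = 0.0572). Rps6, the substrate of S6 kinase downstream of mTOR, had 481 and 651 FPKM in the GoF libraries, 524, 699, 863 and 760.2 FPKM in the LoF libraries, and 566 and 598 FPKM in the WT libraries, with overlap between all groups.

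Other genes of the translation machinery were set beside the members. Of the 7 cytosolic ribosomal protein genes outside the name rule, 0 passed in any comparison (limma). Their median log2 fold change was 0.47 for GoF against WT and 0.48 for LoF against WT, and at an unadjusted p under 0.05 2 were higher in each. In GoF against LoF it was 0.099, with 4 genes above 0 and 3 below, where the median of the members was -0.36. Rplp2, a stalk protein that recruits elongation factors, had 988 and 1051 FPKM in the GoF libraries, 749, 949.8, 1263 and 912 FPKM in the LoF libraries, and 461 and 472 FPKM in the WT libraries, with every mutant library above both WT libraries. Rplp0, the base of the stalk, had 769 and 959.7 FPKM in the GoF libraries, 578, 557, 752 and 869 FPKM in the LoF libraries, and 727 and 876 FPKM in the WT libraries, with overlap.

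Elongation and initiation factors gave 28 tested genes, of which 0 passed against WT in either mutant (unadjusted p under 0.05: 4 higher in GoF, 3 higher and 1 lower in LoF). In GoF against LoF, Eif3h rose and Eif3e fell, both of them subunits of the initiation factor eIF3. Of all genes, 11.6% were called in that comparison. Eif3h had 167 and 179.6 FPKM in the GoF libraries, 59.2, 106, 84.7 and 104 FPKM in the LoF libraries, and 97.2 and 98.8 FPKM in the WT libraries (log2 difference 1.00, SE 0.28, adjusted p = 0.0468). Eif3e had 71.1 and 70.96 FPKM in the GoF libraries, 131, 139.6, 126 and 137 FPKM in the LoF libraries, and 80.8 and 92.8 FPKM in the WT libraries (log2 difference -0.90, SE 0.22, adjusted p = 0.0274). Of 37 ribosome biogenesis genes, which build the particle in the nucleolus, 0 passed in any comparison (unadjusted, 3 were lower in LoF than in WT, and 1 was higher and 2 were lower in GoF than in LoF), with a median of -0.30 for LoF against WT. Of 14 tested genes of the mTOR pathway and its control of ribosomal protein mRNAs, 0 passed (unadjusted, 1 higher and 2 lower in LoF than in WT, 2 higher in GoF than in LoF).

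The mitochondrial ribosome is built from a separate set of nuclear genes (Mrpl and Mrps). Of its 77 tested genes, 0 passed against WT in either mutant (unadjusted, 4 higher and 1 lower in GoF, 8 higher in LoF). In GoF against LoF Mrps16 rose and Mrpl45 and Mrps6 fell. These calls are to be read against the shares over all genes in that comparison, 5.97% higher and 5.68% lower. Mrps6 had 3.58 and 9.95 FPKM in the GoF libraries, 24.1, 72.9, 47.9 and 70.9 FPKM in the LoF libraries, and 10.3 and 11.8 FPKM in the WT libraries, with every LoF library above the others (log2 difference -2.84, SE 0.51, adjusted p = 0.0059). The median log2 fold change over this list was 0.22 for LoF against WT, where that of the cytosolic members was 0.62.

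Start regions were available for 59 of the 83 genes (RefSeq, GRCm38.p6, 250 bases before to 50 after the start). The 7-base word CCGGAAG, the core bound by ETS factors, was found on either strand in 24 of the 59 genes (40.7%), against 9.93% of all 27025 genes in the table. The word AAGATGGC, bound by YY1, was found on either strand in 6 genes (10.2% against 3.19%), and the pyrimidine word CTCTTTC on the gene's own strand in 13 (22.0% against 4.60%). Of the members that fell in GoF against LoF, Rpl37 and Rps3a1 hold the first word and Rpl5 and Rps15a the third within the 100 bases before a RefSeq start. These bases are shown for 1 gene of each pair with the word in capitals, Rpl37 from chr15:5116513-5116612 and Rpl5 from chr5:107900428-107900527, both on the plus strand.
Rpl37: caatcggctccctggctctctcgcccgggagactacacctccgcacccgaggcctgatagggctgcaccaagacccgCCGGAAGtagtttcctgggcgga
Rpl5: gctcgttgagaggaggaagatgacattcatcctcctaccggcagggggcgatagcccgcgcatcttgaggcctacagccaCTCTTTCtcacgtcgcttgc
Rpl34 and Rpl36a held none of these words in the 100 bases, and Rpl21 had no start region. The shares above are for windows of 300 bases and give no background for the 100 bases. A word in this window is a description and no evidence of binding.

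Several other quantities also differed between libraries, and their part in the results was not tested. Ribosomal-RNA-like genes (6 of 12 listed names in the table, 3 of them listed at 0 or under the filter) made up 6.04 and 6.68 percent of FPKM in the GoF libraries, 2.67, 3.50, 1.24 and 2.37 in the LoF libraries, and 6.89 and 8.29 in the WT libraries. These shares were lower in the LoF libraries, where those of the 83 genes were higher, and Gm42418, which overlaps ribosomal RNA, fell in LoF against WT (log2 difference -1.49, SE 0.21, adjusted p = 0.0155) and rose in GoF against LoF (log2 difference 1.44, SE 0.21, adjusted p = 0.00244). Scaling each library without these genes left a median of 0.55 for LoF against WT. The 6 erythroid markers summed to 895 and 1838 FPKM in the GoF libraries, 75.98, 2273, 568 and 290.4 FPKM in the LoF libraries, and 2557 and 10567 FPKM in the WT libraries, and all 4 globins were higher in both WT libraries than in LoF libraries 1, 3 and 4. Of the 5 erythroid markers tested, 1 fell in GoF against WT. FPKM of abundant genes lowers all others in a library, and scaling without the erythroid genes gave a median of 0.60 for LoF against WT. The 6 osteoblast markers summed to 15294 and 17447 FPKM in the GoF libraries, 9497, 12503, 9553 and 12360.5 FPKM in the LoF libraries, and 14997 and 14024 FPKM in the WT libraries: in LoF against WT, Col1a1 and Ibsp fell and Spp1 rose, and in GoF against LoF Col1a1, Ibsp, Bglap and Sp7 rose and Spp1 fell, with 0 of 6 past the test in GoF against WT (limma; unadjusted p under 0.05 for 1 higher and 1 lower). Chondrocyte markers summed to 290.2 and 235 FPKM in the GoF libraries, 18.7, 164, 99.4 and 123 FPKM in the LoF libraries, and 17.2 and 30.2 FPKM in the WT libraries, with 0 of 5 past the test against WT in either mutant (limma; unadjusted p under 0.05 for 3, all higher, in each). In GoF against LoF Ihh rose (adjusted p = 0.016), as did the osteoclast marker Acp5 (adjusted p = 0.0319). Myeloid markers summed to 5.24 to 247 FPKM, osteoclast markers to 58.1 to 98.8 FPKM and endothelial markers to 0 to 52.7 FPKM over the 8 libraries.

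Transcript length was set beside the differences among the members only. These mRNAs are mostly short, so the values cannot compare them with longer mRNAs of other genes, and a part of length in the results was not tested. Across the 76 tested protein-coding members (median 731.5 bases), Spearman's rho of length with the log2 fold change was -0.13 for GoF against WT, -0.09 for LoF against WT and 0.03 for GoF against LoF, given as a description across genes that share libraries. Between LoF libraries it was larger: -0.42 for library 2 minus library 4 and -0.34 for library 2 minus library 3, so that shorter genes ran higher in LoF library 2.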

How the data were processed

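Each gene and library has 1 FPKM value in the deposited table, computed by the authors. The submitters' processing notes name the build mm10 and, without their roles, Cufflinks, HISAT2, HTSeq and SAMtools 0.1.18. The annotation release and the handling of reads that fit several copies are not given in the sources used here. Smart-seq2 marks no strand, so overlapping genes cannot be told apart by strand. Of 48555 lines, 65 repeated a gene and were dropped. Depth is unknown, and counting error was therefore not estimated.

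Values were used as deposited, on the log2(FPKM + 1) scale, which understates the change of low genes. A gene entered if 2 or more of the 8 libraries reached an FPKM of 1 (12888 genes, 81 of the 83 members). All 3 groups were fitted together in limma 3.58.1 (R 4.3.3) with a mean-variance trend, two-sided. Calls used a Benjamini-Hochberg adjusted p under 0.05 over all 12888 genes. The code was tested on simulated data. Subunit sums add deposited FPKM. Lists get counts and medians, with no test. Counts at an unadjusted p and counts of signs have no share over all genes beside them and are description only.

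The members, the lists and the naming rule were chosen with earlier results of these data known. The rule names members called in a comparison, the 5 highest of each subunit, paralogues with their partners, the 3 largest differences in each direction, genes of Diamond-Blackfan anaemia, Rpl38, Rpl24 and Rps6, and members at 0; a few genes the rule or the lists hold are not reported here. Of 20 alternatives, 3 were chosen after seeing the data: pseudogene rows summed into the parent gene, scaling to the summed FPKM of the members, and rescaling without erythroid genes. GENCODE M21 supplied biotypes and coding sequences, and RefSeq (GRCm38.p6) the start regions.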

Additional observations from a re-analysis of the deposited data

Results flagged for a closer look

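Of 48 members or sums checked in the LoF group, which has 4 libraries, 6 held a library far from the other 3, by the gap to its nearest neighbour as a part of the whole range (Dixon's test). Chance flags about 1 in 20 groups. LoF library 2 was high in Rpl34, at 1734 FPKM with the next at 1352, and in Rpl36a, at 952 FPKM with the next at 692. LoF library 3 was high in Rpl13a, at 2355 FPKM with the next at 1544, and in the copy Rps3a3, at 5.06 FPKM with the next at 0.967. LoF library 1 was low in Rps7, at 302 FPKM with the next at 391. Rpl3l was at 0.710 FPKM in LoF library 4 and listed at 0 in the other 3.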

How the results depend on the processing

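Quantile normalization moved the median log2 fold change of the members to -0.055 (0.21 as reported) for GoF against WT and to 0.30 (0.62 as reported) for LoF against WT, and the log2 ratio of the summed FPKM to -5.12e-05 and 0.35 for the same pairs. Sex as a covariate gave a median of -0.13 in GoF against WT, with the sex term taken from the LoF libraries alone. Leaving out a library gave median values of 0.072 to 0.37 for GoF over WT, 0.52 to 0.70 for LoF over WT and -0.52 to -0.19 for GoF over LoF. The count of 0 members in GoF against WT became 1 under median ratio scaling (Rps12l1), quantile normalization (Rpl34) and a fit of the compared groups alone (Rps12), and was 0 to 3 when a library was left out. In LoF against WT the count of 3 became 1 with a pseudocount of 0.1, without a filter, under quantile normalization and when scaled to the summed FPKM of the members, each time Rpl21. It became 5 when rescaled without rRNA-like genes, 6 without erythroid genes, and 0 without a mean-variance trend or with sex as a covariate; leaving out a library gave 0 to 3. In GoF against LoF the count of 9 became 2 without a filter, 3 without a trend, 5 with sex as a covariate, 5 when scaled to the members' sum, 20 under quantile normalization, 21 without rRNA-like genes and 25 without erythroid genes; leaving out a library gave 0 to 10. The calls over all genes in each of these fits are not given here. The member counts alone therefore do not show whether a change belongs to the members or to the calls over all genes. Rescaling without a gene set also brings libraries to equal totals of the remaining genes. Scaling to the members' sum gave a median over the members of 0.0023 for GoF over WT, -0.021 for LoF over WT and 0.062 for GoF over LoF, and moved the median of all genes to -0.41 in LoF against WT (0.06 as reported) and to 0.13 in GoF against LoF (-0.17 as reported). With the replicate number as a block, 0 members passed between GoF and WT, 1 between LoF and WT (Rpl29, lower in LoF) and 12 between GoF and LoF. Numbers 3 and 4 occur only in LoF, so this fit sets only LoF libraries 1 and 2 against the other groups. Rpl29 was listed at 0 in those libraries and had 194 and 121 FPKM in LoF libraries 3 and 4. Deviations of same-numbered libraries correlated at 0.030 or less. With 2 libraries in GoF and in WT these correlations mirror each other, so they cannot decide whether the numbers pair the libraries. No call changed direction. In GoF against LoF the call of Rpl21 ended in 1 of 20 alternatives, that of Rpl34 in 2, Rps3a3 in 5 of 19, Rpl5 in 9, Rps15a and Rpl36a in 10, Rps3a2 in 11 of 19, Rpl37 in 12 and Rps3a1 in 15; in LoF against WT that of Rpl21 ended in 5, Rpl26 in 11 and Rps24 in 15. The cause was not tested. With 2 GoF and 2 WT libraries, 1 library decides many calls, and depth is unknown.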
